A study of Homo sapiens with 10 samples.

Results

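The BCL2 family decides whether a cell opens the outer membrane of its mitochondria and dies by apoptosis. The 10 genes described here were chosen by name, as listed members of the family, with earlier results of these data known. They comprise the survival proteins BCL2, BCL2L1 (BCL-XL), MCL1 and BCL2L2, the pore-forming effectors BAX and BAK1, and the BH3-only proteins BID, BBC3 (PUMA), PMAIP1 (NOXA) and BCL2L11 (BIM). On the array 19158 of 32321 probe sets carried a single gene symbol, for 18404 genes in all, and 9 of the 10 family genes had 1 such probe set each. The probe set that carries BCL2L2 is also assigned to a read-through transcript with its neighbour, so no value is given for BCL2L2.

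RNA was measured on Affymetrix arrays in HEK-293, a line derived from human embryonic kidney, 48 hours after transfection of small interfering RNAs (siRNAs). Cells received LOC440173 siRNA 1 or siRNA 2 at 10 nM, with a control siRNA at 10 nM, or an siRNA against PAXIP1-AS1 at 100 nM, with the control siRNA at 100 nM. Each of the 5 groups held 2 arrays that the labels call biological replicates. Whether they came from separate cultures is not stated, so p-values measure the spread between these arrays.

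All groups share the RNAiMax reagent and the same parent line. HEK-293 cells carry adenoviral E1A and E1B genes, and an E1B product resembles BCL2 in function, which limits the line as a model of apoptosis. Survival members hold BAX and BAK1 in check. BH3-only proteins, switched on by stress, neutralise the survival members or activate the effectors, after which cytochrome c leaves the mitochondria and activates caspases. MCL1 and PMAIP1 turn over quickly, and BAX, BBC3 and PMAIP1 are classic targets of the tumour suppressor p53.

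LINC02893, the current name of LOC440173, stood at 51.4% of its 10 nM control with siRNA 1 (limma adjusted p = 0.000345) and at 27.0% with siRNA 2 (1.68e-05). No probe set was named PAXIP1-AS1, so its silencing was not analysed here. Array medians lay between 7.06 and 7.12 (log2), and the r between the arrays of a group was 0.994 to 0.997 over all probe sets, whose values are not independent. Of 9 probe sets for markers expected in HEK-293 cells 6 lay above the median level of 7.62, led by VIM, EYA1 and NEFM, while PAX2, LHX1 and KRT8 lay below it. Of 12 probe sets for markers of liver, blood, endothelium, fibroblasts and keratinocytes 8 lay below the lower quartile of 5.98 and 1, COL1A1, above the median. The mean level of these 12 was 5.41 to 5.43 on the siRNA 1 arrays, 5.27 to 5.33 on the siRNA 2 arrays and 5.22 to 5.35 on the 10 nM control arrays, and 5.25 to 5.33 on the PAXIP1-AS1 arrays and 5.30 to 5.39 on the 100 nM control arrays. With siRNA 1, COL1A1 (0.33, limma adjusted p = 0.0402) and 1 of the 2 PECAM1 probe sets (0.36, 0.0239) were higher, calls lost without control 10 nM replicate 2 (0.200 and 0.0950) or either siRNA 1 array (0.0577 to 0.214). COL1A1 was also lost without either siRNA 2 array (0.0520 each) or either PAXIP1-AS1 array (0.0621 each). The siRNA 1 calls are 2 of these 12, against 28.2% of all probe sets. With siRNA 2 and with the PAXIP1-AS1 siRNA 0 of these 12 passed, against 29.3% and 4.33% of all.

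Some of the HEK-293 markers themselves moved with the siRNAs. Of their 9 probe sets 1 was higher and 6 lower with siRNA 2, against 12.3% and 17.0% of all probe sets. With siRNA 1 it was 1 higher and 2 lower, against 11.8% and 16.4%, a share near the background. With the PAXIP1-AS1 siRNA it was 0 higher and 3 lower, against 2.68% and 1.65%. The medians were -0.31 with siRNA 2, 0.05 with siRNA 1 and -0.13 with the PAXIP1-AS1 siRNA, beside 0.01, 0.05 and -0.01 over all. NEFM, a neurofilament gene, was higher with siRNA 2 (1.11, limma adjusted p = 2.37e-05). It was lower with siRNA 1 (-0.77, 0.000117) and with the PAXIP1-AS1 siRNA (-0.52, 0.00632). That PAXIP1-AS1 call was lost with the compared groups alone (0.0549). It was also lost without control 100 nM replicate 1 (value -0.47), PAXIP1-AS1 replicate 1 (-0.49) or PAXIP1-AS1 replicate 2 (-0.56). The value ran from -0.57 to -0.47 over the alternatives. NEFL, another neurofilament gene, was lower with siRNA 2 (-0.51, 0.000910), siRNA 1 (-1.07, 3.74e-05) and the PAXIP1-AS1 siRNA (-1.13, 0.000318). These markers were picked out after their values were seen. The part of either marker list in the changes below was not tested.

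In these bulk samples a lower level cannot be told apart from fewer cells that express a gene. Levels below are RMA values on the log2 scale, and differences are log2 fold changes from limma with a standard error (SE). A gene is said to have risen or fallen where its adjusted p, corrected over all 19158 probe sets, was under 0.05. Exact permutation of 2 and 2 arrays gives p = 0.333 at best, so the calls rest on a spread pooled over the 5 groups.

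More members passed with LOC440173 siRNA 2 than with the other siRNAs. BCL2L1, MCL1 and BAX fell while PMAIP1 and BCL2L11 rose. That is 5 of 9 probe sets, against 29.3% of all probe sets tested, and 3 of 9 were lower against 17.0% and 2 of 9 higher against 12.3%. With siRNA 1, BCL2L1 fell and MCL1 and BCL2L11 rose, 3 of 9 probe sets against 28.2% of all, a share near the background (2 higher against 11.8%, 1 lower against 16.4%). With the PAXIP1-AS1 siRNA BAX fell and BID rose, 2 of 9 against 4.33% of all, where 1 of 9 was higher against 2.68% of all and 1 of 9 lower against 1.65%. In total 6 of the 9 genes changed with at least 1 of the 3 siRNAs, against 43.8% of all probe sets, and 4 of the 9 changed with 2 siRNAs, against 13.8% of all. BCL2, BAK1 and BBC3 changed with none. Because the members were chosen with earlier results of these data known, these shares are given as a description. The median change of the 9 probe sets was 0.04 with siRNA 1, -0.09 with siRNA 2 and -0.0044 with the PAXIP1-AS1 siRNA, beside 0.05, 0.01 and -0.01 over all probe sets tested. The median size of change, without its sign, was 0.21, 0.34 and 0.17, beside 0.16, 0.14 and 0.087 over all.

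**Figure D1:**
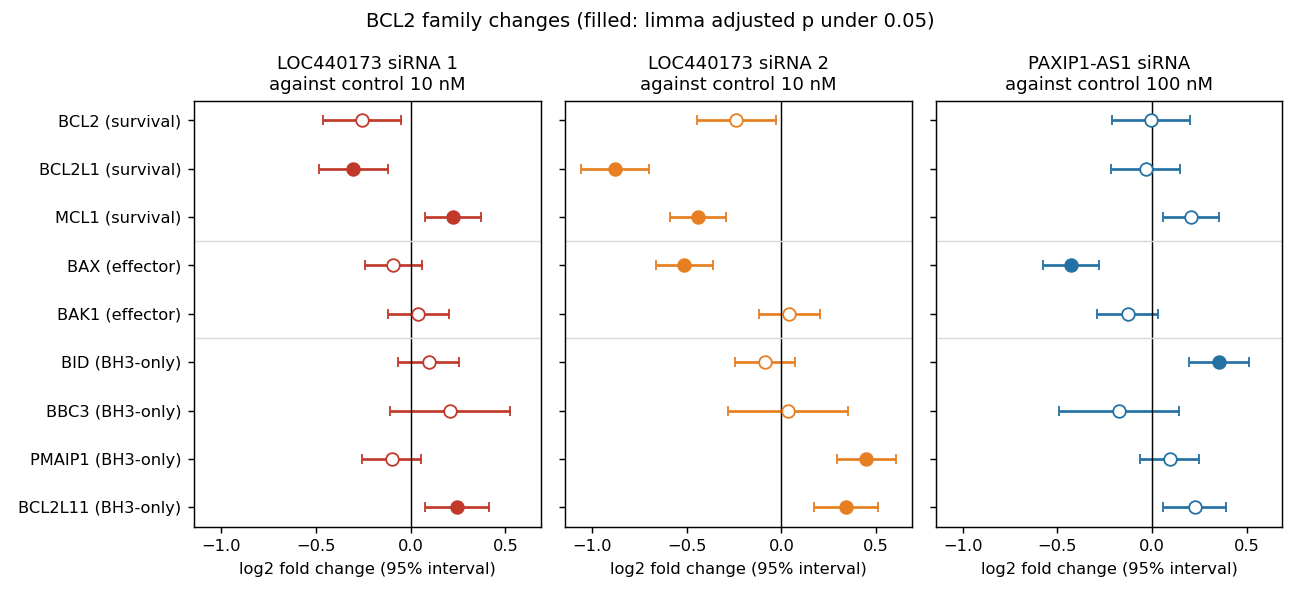
Log2 fold change of each BCL2 family probe set (points) with its 95% interval (bars), by siRNA against its own control (panels). Filled points passed an adjusted p of 0.05. With siRNA 2 BCL2L1, MCL1 and BAX lie left of 0 and PMAIP1 and BCL2L11 right of it, and with the PAXIP1-AS1 siRNA BAX lies left and BID right.

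Among the survival genes, BCL2L1 had the widest spread of group means, 0.88. Its product BCL-XL binds BAX, BAK1 and BH3-only proteins. BCL2L1 measured 8.56 and 8.54 with siRNA 1, and 7.88 and 8.06 with siRNA 2, against 8.90 and 8.80 in the 10 nM control. It measured 8.77 and 8.82 with the PAXIP1-AS1 siRNA against 8.76 and 8.90 in the 100 nM control. The siRNA 2 arrays were the lowest of all, the siRNA 1 arrays came next without overlap, and the remaining 3 groups overlapped. BCL2L1 fell to 54.4% of the control with siRNA 2 (-0.88, SE 0.078, limma adjusted p = 0.000148) and to 81.1% with siRNA 1 (-0.30, SE 0.078, adjusted p = 0.0233). The siRNA 1 call was lost without control 10 nM replicate 1 (adjusted p = 0.0875), siRNA 1 replicate 1 (0.0886) or siRNA 1 replicate 2 (0.107). With the PAXIP1-AS1 siRNA it differed by -0.03 (95% interval -0.21 to 0.15, adjusted p = 0.889).

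The promoter of BCL2L1 is shown because this gene changed most. RefSeq (GRCh38.p14) lists 2 start sites for it, and the window from 250 bases before to 50 after one of them is printed 5′ to 3′. Capitals mark TGACG, the half-site bound by CREB and ATF factors, searched on both strands.
BCL2L1 promoter, chr20:31723914-31724213, minus strand: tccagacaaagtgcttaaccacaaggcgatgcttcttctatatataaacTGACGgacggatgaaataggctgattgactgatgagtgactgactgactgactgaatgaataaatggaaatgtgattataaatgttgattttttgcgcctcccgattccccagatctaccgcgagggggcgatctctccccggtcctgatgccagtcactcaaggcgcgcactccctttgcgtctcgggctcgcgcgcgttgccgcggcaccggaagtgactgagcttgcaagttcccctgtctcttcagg
This window holds 1 such half-site, as do 24.6% of 35116 promoter windows of the same length, and the other BCL2L1 window holds 0. Of the 10 genes 8 had a promoter entry, and MCL1 and BCL2L2 had none.

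The arrays measure RNA and not protein. The RNA of MCL1, which encodes a short-lived survival protein that PMAIP1 neutralises, moved in opposite directions with the LOC440173 siRNAs. It measured 10.76 and 10.71 with siRNA 1, and 10.06 and 10.09 with siRNA 2, against 10.45 and 10.58 in the 10 nM control. It measured 10.64 and 10.72 with the PAXIP1-AS1 siRNA against 10.44 and 10.52 in the 100 nM control. Both siRNA 2 arrays lay below all others, and the siRNA 1 and PAXIP1-AS1 arrays overlapped above both controls. MCL1 fell to 73.7% of the control with siRNA 2 (-0.44, SE 0.063, limma adjusted p = 0.00142) and rose 1.17-fold with siRNA 1 (0.22, SE 0.063, adjusted p = 0.0343). The siRNA 1 call was lost without control 10 nM replicate 1 (adjusted p = 0.123), either siRNA 1 array (0.163 and 0.0910), either PAXIP1-AS1 array (0.0505 each), when the fit held the compared groups alone (0.110) and with all probe sets tested (0.0645). With the PAXIP1-AS1 siRNA MCL1 differed by 0.21 (adjusted p = 0.125), and passed after dropping dim probe sets (0.0330) or with an intensity trend and robust prior (0.0230).

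BCL2 itself, the founding survival gene, passed with no siRNA. It measured 7.02 and 6.77 with siRNA 1, and 6.90 and 6.93 with siRNA 2, against 7.17 and 7.13 in the 10 nM control. It measured 7.16 and 7.03 with the PAXIP1-AS1 siRNA against 7.15 and 7.05 in the 100 nM control. Neither LOC440173 group overlapped its control, while the 100 nM groups overlapped. The differences of -0.26 with siRNA 1 and -0.24 with siRNA 2 did not pass (limma adjusted p = 0.0669 and 0.0871). The siRNA 1 value passed without siRNA 1 replicate 1 (0.0220), after another quantile normalization (0.0320) and with the replicate number as a block (0.0279). The siRNA 2 value passed without either siRNA 1 array (0.0411 each) and with that block (0.0386). The PAXIP1-AS1 value was -0.0044 (95% interval -0.21 to 0.20).

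Of the effectors BAX and BAK1, which form the pore, BAX fell with 2 of the siRNAs and BAK1 passed with none. BAX measured 10.86 and 10.90 with siRNA 1, and 10.51 and 10.41 with siRNA 2, against 11.04 and 10.90 in the 10 nM control. It measured 10.61 and 10.54 with the PAXIP1-AS1 siRNA against 11.01 and 10.99 in the 100 nM control. The 4 arrays of siRNA 2 and the PAXIP1-AS1 siRNA were the lowest and did not overlap any other group. BAX fell to 70.1% of the control with siRNA 2 (-0.51, SE 0.065, limma adjusted p = 0.000741) and to 74.3% with the PAXIP1-AS1 siRNA (-0.43, SE 0.065, adjusted p = 0.0134). The siRNA 1 difference was -0.09 (95% interval -0.24 to 0.06, adjusted p = 0.330). The PAXIP1-AS1 call was lost without control 100 nM replicate 1 (0.101) or replicate 2 (0.0806), without PAXIP1-AS1 replicate 1 (0.0799) or replicate 2 (0.122), and with the compared groups alone (0.0579).

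The BAX promoter is shown because BAX was lower with siRNAs against both targets. Capitals mark the E-box CACGTG, a site read by MYC and related factors, which is the same on both strands.
BAX promoter, chr19:48954625-48954924, plus strand: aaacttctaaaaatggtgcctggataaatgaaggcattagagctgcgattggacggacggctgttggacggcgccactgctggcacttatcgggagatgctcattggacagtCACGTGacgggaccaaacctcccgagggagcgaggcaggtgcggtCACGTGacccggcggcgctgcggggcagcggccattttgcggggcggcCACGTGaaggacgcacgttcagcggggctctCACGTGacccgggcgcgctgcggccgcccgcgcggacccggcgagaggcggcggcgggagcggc
It holds 4 E-boxes, a motif found in 7.26% of the promoter windows. It also holds 1 TGACG half-site, which overlaps an E-box. The window of BBC3, which passed with no siRNA, holds 1 E-box, as do some of the 5 BID windows. The p53 half-site consensus, found in 6.63% of windows, had 0 matches in the BAX window and 0 in the windows of BBC3 and PMAIP1. It had 1 match in the BAK1 window. Sites outside the window from 250 bases before to 50 after the start were not searched.

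BAK1 measured 9.31 and 9.48 with siRNA 1, and 9.38 and 9.41 with siRNA 2, against 9.31 and 9.40 in the 10 nM control, with all 3 groups overlapping. It measured 9.12 and 9.05 with the PAXIP1-AS1 siRNA against 9.20 and 9.22 in the 100 nM control, without overlap. The differences were 0.04 with both LOC440173 siRNAs (95% intervals -0.12 to 0.20) and -0.13 with the PAXIP1-AS1 siRNA (-0.29 to 0.03, limma adjusted p = 0.399). The 2 controls did not overlap for BAK1 either.

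**Figure D2:**
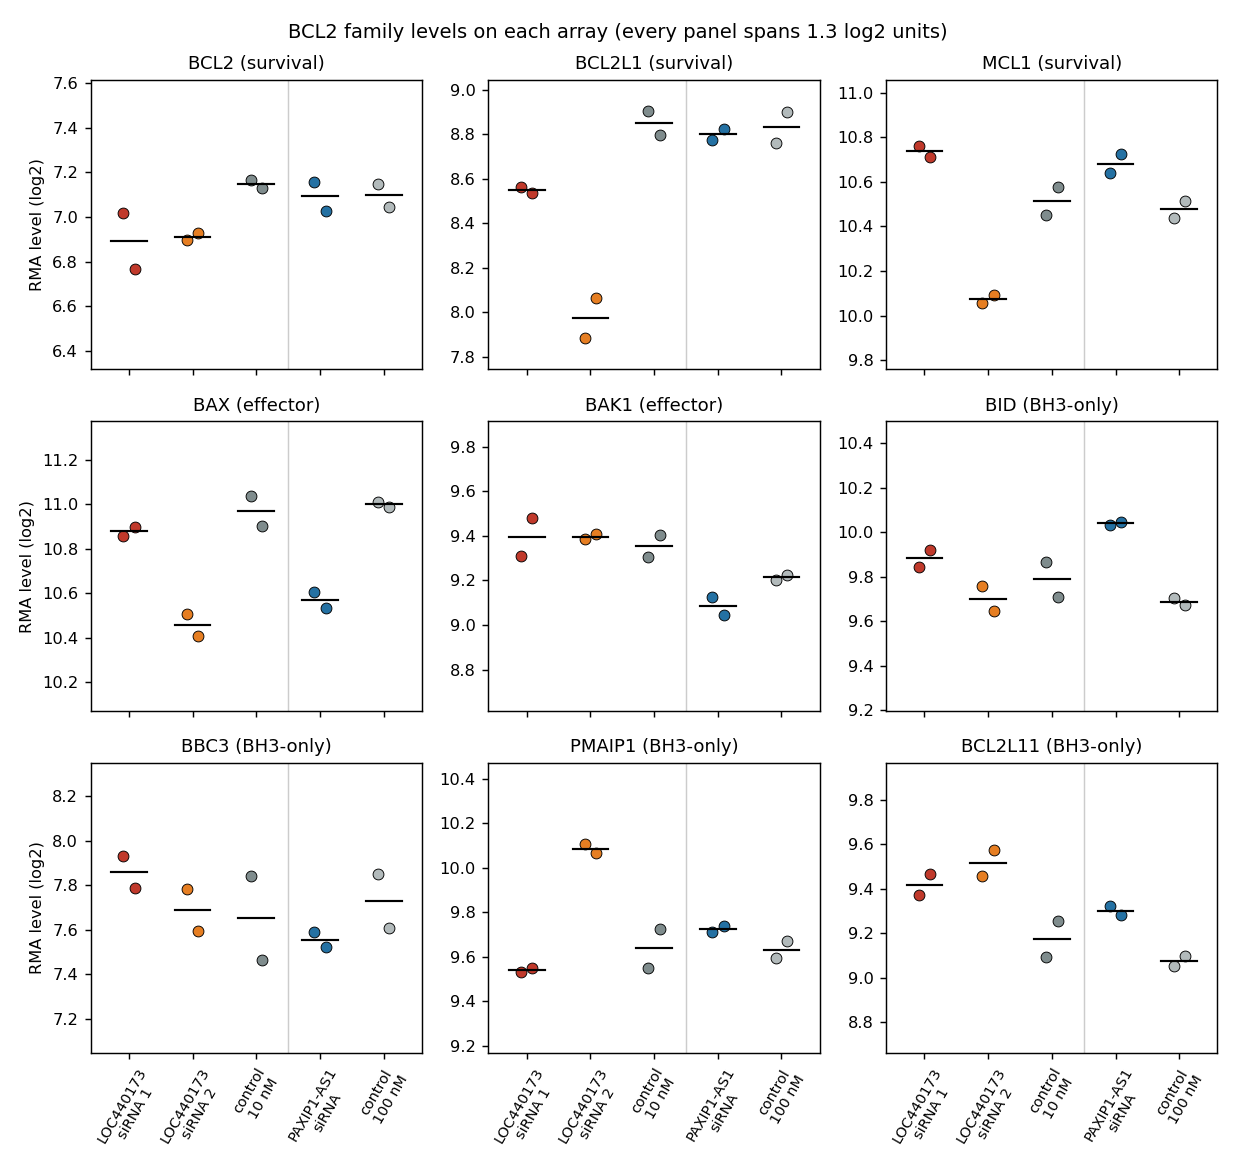
RMA level (log2) of each BCL2 family probe set on every array (points) with the group mean (line), by siRNA group. Every panel spans the same range of 1.3 log2 units, so the siRNA 2 arrays stand apart below the rest for BCL2L1 and MCL1 and above the rest for PMAIP1.

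Among the BH3-only genes, PMAIP1 rose with siRNA 2. It encodes NOXA, which binds MCL1 and promotes its degradation. It measured 9.53 and 9.55 with siRNA 1, and 10.11 and 10.06 with siRNA 2, against 9.55 and 9.73 in the 10 nM control. It measured 9.71 and 9.74 with the PAXIP1-AS1 siRNA against 9.59 and 9.67 in the 100 nM control. Both siRNA 2 arrays lay above every other array. PMAIP1 rose 1.36-fold with siRNA 2 (0.45, SE 0.067, limma adjusted p = 0.00172). It differed by -0.10 with siRNA 1 (adjusted p = 0.311) and by 0.09 with the PAXIP1-AS1 siRNA (adjusted p = 0.553), where groups did not overlap.

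The PMAIP1 promoter is shown because this gene rose most with siRNA 2. Capitals mark the TGACG half-site, here on the opposite strand as CGTCA.
PMAIP1 promoter, chr18:59899746-59900045, plus strand: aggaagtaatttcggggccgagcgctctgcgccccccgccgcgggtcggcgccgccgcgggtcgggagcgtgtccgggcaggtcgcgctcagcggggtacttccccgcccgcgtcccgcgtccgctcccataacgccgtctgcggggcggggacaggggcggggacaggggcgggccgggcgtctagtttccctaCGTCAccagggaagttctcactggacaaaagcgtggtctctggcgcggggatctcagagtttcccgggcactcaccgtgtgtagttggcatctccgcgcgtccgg
It holds 1 half-site and 0 E-boxes. The window of BCL2, which passed with no siRNA, also holds 1 half-site. The printed promoters belong to the genes with the largest changes with siRNA 2 that had an entry, a choice made after the values were seen. Which motif is marked was set for each gene separately.

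BCL2L11 encodes BIM, which binds every survival member and can activate BAX. It measured 9.37 and 9.47 with siRNA 1, and 9.46 and 9.57 with siRNA 2, against 9.09 and 9.26 in the 10 nM control. It measured 9.32 and 9.28 with the PAXIP1-AS1 siRNA against 9.06 and 9.10 in the 100 nM control. Each silenced group lay above its control without overlap. BCL2L11 rose 1.27-fold with siRNA 2 (0.34, SE 0.072, limma adjusted p = 0.00901) and 1.19-fold with siRNA 1 (0.25, SE 0.072, adjusted p = 0.0389). With the PAXIP1-AS1 siRNA it differed by 0.22 (adjusted p = 0.144), and passed after dropping dim probe sets (0.0429) or with an intensity trend and robust prior (0.0496).

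The BCL2L11 calls depended on single arrays. With siRNA 2 the call was lost without siRNA 2 replicate 2 (adjusted p = 0.0575) and with the compared groups alone in the limma fit (0.0785). With siRNA 1 it was lost without control 10 nM replicate 1 (0.141), either siRNA 1 array (0.0736 and 0.191), either 100 nM control array (0.0586 each) or either PAXIP1-AS1 array (0.0635 each), with only the compared groups (0.116) and with all probe sets tested (0.0710).

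BID, which caspase 8 cleaves to link death receptors to mitochondria, measured 10.03 and 10.05 with the PAXIP1-AS1 siRNA against 9.70 and 9.67 in the 100 nM control. It measured 9.84 and 9.92 with siRNA 1, and 9.76 and 9.65 with siRNA 2, against 9.87 and 9.71 in the 10 nM control. The PAXIP1-AS1 arrays were the highest of all, and the other 4 groups overlapped in a chain. BID rose 1.28-fold with the PAXIP1-AS1 siRNA (0.35, SE 0.069, limma adjusted p = 0.0321), and differed by 0.09 with siRNA 1 (0.339) and -0.09 with siRNA 2 (0.432). Leaving out any of the 4 arrays at 100 nM ended the PAXIP1-AS1 call (adjusted p from 0.146 to 0.195), as did leaving out either siRNA 1 array (0.0610 each). It was also lost after another quantile normalization (0.0607), with all probe sets tested (0.0745) and with the compared groups alone (0.0651).

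BBC3, the p53 target PUMA, had the largest SE of the members. It measured 7.93 and 7.79 with siRNA 1, and 7.78 and 7.60 with siRNA 2, against 7.84 and 7.47 in the 10 nM control. It measured 7.59 and 7.52 with the PAXIP1-AS1 siRNA against 7.85 and 7.61 in the 100 nM control. All neighbours in the order of group means overlapped. The PAXIP1-AS1 arrays still lay below those of their own control without overlap, as did the siRNA 2 arrays below those of siRNA 1. The differences of 0.21, 0.04 and -0.17 had an SE of 0.14 and limma adjusted p of 0.301, 0.891 and 0.589.

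Non-overlap alone was common on these arrays. With siRNA 1 the arrays of 6 of the 9 probe sets did not overlap those of the control, against 64.6% of all probe sets. With siRNA 2 it was 6 of 9 against 54.9%, and with the PAXIP1-AS1 siRNA 7 of 9 against 51.1%. The controls at 100 nM and 10 nM did not overlap for 2 of 9, against 26.0% of all. In that control comparison limma called 0 of the 9, and 0% of all probe sets. At an unadjusted p under 0.05 the count was 0 of the 9 and 3.78% of all, and the differences of the 9 ran from -0.14 for BAK1 to 0.07 for BBC3.

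The LOC440173 siRNAs were also compared with each other. With siRNA 2 against siRNA 1, BCL2L1, MCL1 and BAX were lower and PMAIP1 was higher, 4 of 9 probe sets against 36.6% of all (3 lower against 18.6%, 1 higher against 18.0%). Their arrays did not overlap for 6 of 9, against 66.1% of all. In the direct limma contrast BCL2L1 differed by -0.58 (adjusted p = 0.000708), MCL1 by -0.66 (0.000114), BAX by -0.42 (0.00131) and PMAIP1 by 0.55 (0.000406). These 4 were called under every alternative tried apart from a 1.5-fold minimum, which MCL1 alone passed. BCL2L11 differed by 0.10 (95% interval -0.07 to 0.26, adjusted p = 0.359), BCL2 by 0.02 (-0.19 to 0.23) and BAK1 by 0.0013 (-0.16 to 0.16). BID differed by -0.18 (adjusted p = 0.0769). It passed without either 10 nM control array (0.0455 each), after dropping dim probe sets (0.0269) and with an intensity trend and robust prior (0.0252).

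The change with the PAXIP1-AS1 siRNA was then set against that with each LOC440173 siRNA, as the difference between the changes from each one's own control. Against siRNA 2, 4 of 9 probe sets differed, against 16.5% of all (3 higher against 10.7%, 1 lower against 5.74%). Against siRNA 1, 1 of 9 differed, against 16.4% of all (1 lower against 5.64%). The change with the PAXIP1-AS1 siRNA lay above that with siRNA 2 by 0.84 for BCL2L1 (limma adjusted p = 0.00212) and by 0.65 for MCL1 (0.00267). For MCL1 the changes had opposite signs, 0.21 with the PAXIP1-AS1 siRNA, which did not pass, and -0.44 with siRNA 2. In the same contrast BID differed by 0.44 (0.0194) and PMAIP1 by -0.36 (0.0393). For BAX the changes with the PAXIP1-AS1 siRNA and siRNA 2 differed by 0.08 (95% interval -0.13 to 0.30, adjusted p = 0.617). Against siRNA 1, BAX differed by -0.34 (0.0421).

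In the contrast with siRNA 2 the BID difference was lost without siRNA 2 replicate 2 (adjusted p = 0.0599) or any of the 4 arrays at 100 nM (0.0533 to 0.0702). The PMAIP1 difference was lost in the limma fit without any array except control 10 nM replicate 2 (0.0672 to 0.125), with all probe sets tested (0.0789) and with the compared groups alone (0.0694). The BAX difference from siRNA 1 was lost without control 10 nM replicate 2, either siRNA 1 array or any array at 100 nM (0.0800 to 0.146), after another quantile normalization (0.0564) and with all probe sets tested (0.0834).

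The genes whose levels followed the 2 widest-ranging members most closely over the 10 arrays were looked up among 4424 probe sets with group means at least 0.5 apart. TAGLN2, GLT8D2 and H2AC21 followed BCL2L1 at r = 0.993, 0.992 and 0.992. RABGGTB, BBX and TGFBR3 followed MCL1 at r = 0.993, 0.991 and 0.989. The arrays fall into 5 groups, so these values mostly compare group means and are given as a description.

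Other genes of the pathway were described in 3 lists. Of the 11 other BCL2 family genes 4 rose and 1 fell with siRNA 1, 2 rose and 0 fell with siRNA 2, and 0 rose and 1 fell with the PAXIP1-AS1 siRNA. That is 5, 2 and 1 of 11, against 28.2%, 29.3% and 4.33% of all probe sets. Their medians were 0.11, 0.12 and -0.0017, beside 0.05, 0.01 and -0.01 over all. BCL2L13, a mitochondrial outer membrane protein that acts in mitophagy, fell with siRNA 1 (-0.38, limma adjusted p = 0.00390) and the PAXIP1-AS1 siRNA (-0.31, 0.0418) and rose with siRNA 2 (0.25, 0.0242). BCL2L12 (0.41, 0.00216) and the BH3-only genes BIK (0.34, 0.00578) and HRK (0.22, 0.0114) rose with siRNA 1. HRK also rose with siRNA 2 (0.15, 0.0444), a call that ended on leaving out each of the 10 arrays in turn (0.0687 to 0.178). So did the BCL2L13 call with the PAXIP1-AS1 siRNA (0.0507 to 0.232). Its call with siRNA 2 was lost without control 10 nM replicate 2 or either siRNA 2 array (0.0603 to 0.107), with the compared groups alone (0.0927) and with array weights (0.0780). HRK with siRNA 1 was lost without control 10 nM replicate 2 or either siRNA 1 array (0.0524 to 0.0709) and with the compared groups alone (0.0807). With those groups alone, HRK with siRNA 2 (0.239) and BCL2L13 with the PAXIP1-AS1 siRNA (0.116) were lost too. So were they with all probe sets tested (0.0843 and 0.0919), and HRK with siRNA 2 after another quantile normalization (0.0732) and with array weights (0.103).

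The mitochondrial machinery of apoptosis and its caspases had 17 probe sets for 16 of 19 listed genes. Of these 2 rose and 6 fell with siRNA 1, 2 rose and 4 fell with siRNA 2, and 0 passed with the PAXIP1-AS1 siRNA in limma, against 28.2%, 29.3% and 4.33% of all probe sets for either direction. At an unadjusted p under 0.05 the PAXIP1-AS1 count was 3 of 17, against 18.0% of all. The list medians were -0.11, -0.01 and 0.0086, beside 0.05, 0.01 and -0.01 over all. With siRNA 1, the caspase inhibitor XIAP (-0.77, adjusted p = 0.00274), the initiator caspase CASP8 (-0.53, 0.000839) and the outer membrane channel VDAC1 (-0.50, 0.00168) fell, and the XIAP antagonist DIABLO rose (0.35, 0.00363). With siRNA 2, the stress caspase CASP2 (-0.95, 1.17e-05) and CASP9, the caspase of the apoptosome (-0.63, 5.98e-05), fell. XIAP also fell with siRNA 2 (-0.39, 0.0469), a call lost without control 10 nM replicate 2 (0.216), siRNA 2 replicate 1 (0.224) or any array at 100 nM (0.0714 to 0.0719), and under 5 other alternatives (0.0506 to 0.116). The mitochondrial flavoprotein AIFM1 (0.23, 0.00962) and the inhibitor BIRC6 (0.22, 0.0171) rose. The AIFM1 call was lost with the compared groups alone (0.106). The BIRC6 call was lost there (0.125), with array weights (0.0514), and without control 10 nM replicate 1 or either siRNA 2 array (0.0579 to 0.0780).

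Regulators of the family had 20 probe sets for 19 of 20 listed genes. Of these 1 rose and 11 fell with siRNA 1, 0 rose and 9 fell with siRNA 2, and 0 rose and 1 fell with the PAXIP1-AS1 siRNA. Over all probe sets 11.8% rose and 16.4% fell with siRNA 1, 12.3% and 17.0% with siRNA 2, and 2.68% and 1.65% with the PAXIP1-AS1 siRNA. The list medians were -0.22, -0.13 and -0.0030, beside 0.05, 0.01 and -0.01 over all. MDM2, the ubiquitin ligase that restrains p53 and is itself a p53 target, fell with all 3 siRNAs, with log2 changes of -0.56 with siRNA 1 (limma adjusted p = 0.000539), -0.84 with siRNA 2 (6.94e-05) and -0.42 with the PAXIP1-AS1 siRNA (0.0134). The last call ended on leaving out each array at 100 nM in turn (0.0715 to 0.107) and with those groups alone (0.0584). Of the p53 targets among the members, BAX fell with siRNA 2 and the PAXIP1-AS1 siRNA, PMAIP1 rose with siRNA 2 and BBC3 did not pass with any siRNA.

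With siRNA 1, BTRC, a ubiquitin ligase subunit that can mark MCL1 for degradation, fell (-0.89, limma adjusted p = 5.25e-05), as did the adaptor YWHAZ, which holds phosphorylated BAD in the cytosol (-0.67, 6.21e-05). With siRNA 2, E2F1, the S-phase activator that also induces BH3-only genes, fell (-0.78, 5.85e-05), as did the AP-1 subunit JUN (-0.32, 0.00496), which also fell with siRNA 1 (-0.45, 0.00104). The JUN call with siRNA 2 was lost with the compared groups alone (0.0631). The stress factor ATF4 had 2 probe sets that disagreed. One rose with siRNA 1 (0.44, 0.000333) and fell with siRNA 2 (-0.31, 0.00150), while the other fell with siRNA 1 (-0.48, 0.000578) and differed by 0.09 with siRNA 2 (0.265).

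**Figure D3:**
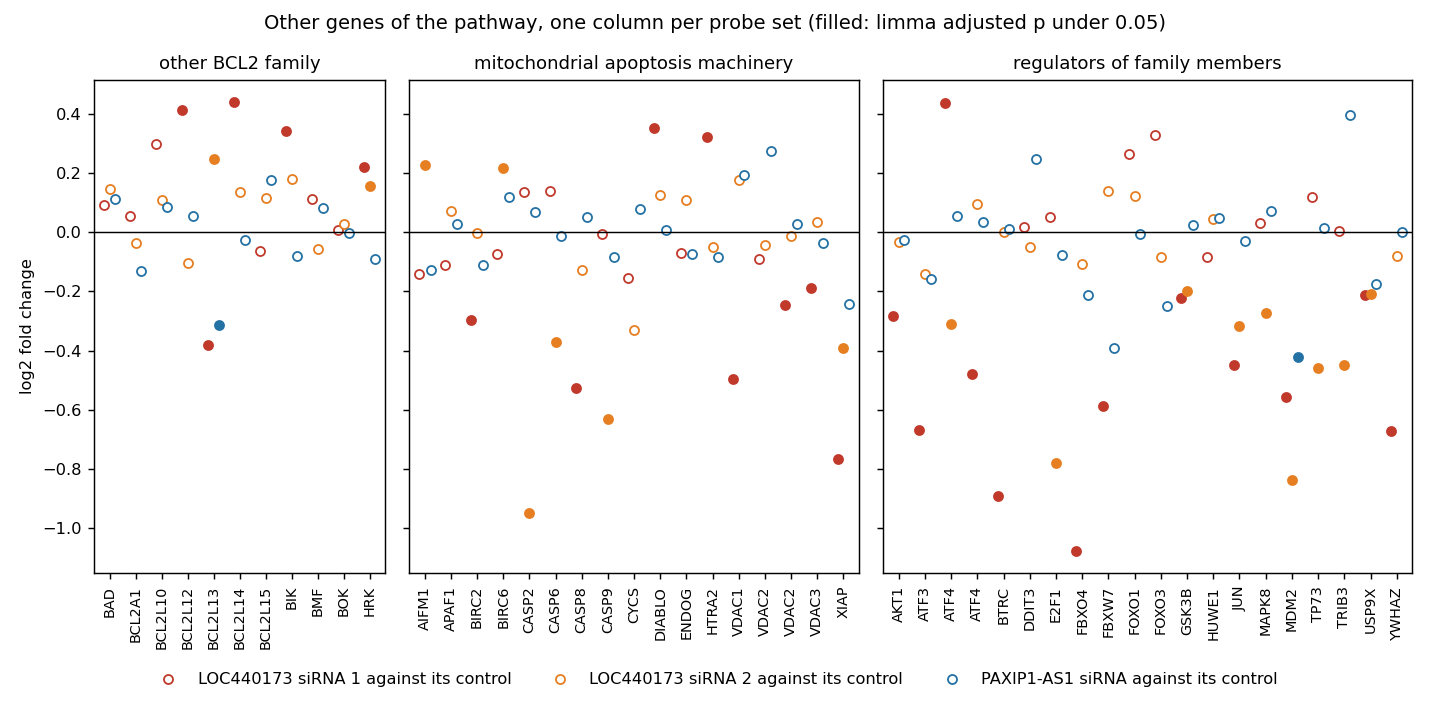
Log2 fold change of the listed pathway genes, 1 column per probe set, for LOC440173 siRNA 1, LOC440173 siRNA 2 and the PAXIP1-AS1 siRNA, each against its own control. Filled points passed a limma adjusted p of 0.05. MDM2 is filled and below 0 for all 3 siRNAs, and BCL2L13 is filled on both sides of 0.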

How the data were processed

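Affymetrix expression arrays of 10 HEK-293 samples were used. The authors deposited log2 values, 1 column per array, and the submitters' processing notes name RMA, which corrects background, equalises the arrays' quantiles and summarises probes, and limma, with no versions. Which array definition, genome build and filters were applied is not given in the sources used here. Groups came from the labels, which give no batch. Scanner signals were not used here and background is unknown, and the number of arrays limits the precision.

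Probe sets were named from the platform annotation where it gave 1 symbol (19158 of 32321, with 1388 given several and 11775 not listed). RefSeq held 19128 of their gene IDs and changed 0 symbols. A limma model (version 3.58.1, R 4.3.3) with a mean per group and eBayes was fitted to all 10 arrays together (5 residual and 2.77 prior degrees of freedom), two-sided, with Benjamini-Hochberg adjustment over 19158 probe sets. The code was tested on simulated data. Every member with a probe set is named, with up to 4 called genes per pathway list and contrast by p, and the 3 probe sets most like the 2 widest-ranging members. Members and lists were chosen with earlier results of these data known. Contrasts with a common control share its arrays. Promoters came from RefSeq (GRCh38.p14). Alternatives were another quantile normalization, other sets of probe sets, only the compared groups, a trend with a robust prior, the replicate block, array weights, a 1.5-fold minimum and leaving out each array.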

Additional observations from a re-analysis of the deposited data

Results flagged for a closer look

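Some members changed differently with different siRNAs, by the test of the difference itself (limma, adjusted over all probe sets). Between LOC440173 siRNA 2 and siRNA 1, which differ only in the siRNA used against the same RNA, BCL2L1 differed by -0.58, MCL1 by -0.66, BAX by -0.42 and PMAIP1 by 0.55. Both arrays of siRNA 2 lay beyond both arrays of siRNA 1 for each of the 4.

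The change with the PAXIP1-AS1 siRNA minus that with siRNA 2 was 0.84 for BCL2L1, 0.65 for MCL1, 0.44 for BID and -0.36 for PMAIP1. The change with the PAXIP1-AS1 siRNA minus that with siRNA 1 was -0.34 for BAX. Dose differed with the target, 100 nM for PAXIP1-AS1 and 10 nM for LOC440173, so target and dose cannot be told apart in these last 5 differences. LINC02893 stood at 27.0% of its control with siRNA 2 and 51.4% with siRNA 1, and the part of this gap in the differences between these siRNAs was not tested.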

How the results depend on the processing

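Of the 19 called differences of the 9 probe sets, 10 kept their direction and call under all 18 alternatives that kept the threshold and 9 lost the call under at least 1. Of 35 uncalled differences 7 passed under at least 1. Counts of members called that moved by over 1.5 times are given here, with ranges on leaving out an array. Smaller moves were 4 for siRNA 1 after another quantile normalization, 4 for siRNA 2 with only the compared groups, 5 for siRNA 2 against siRNA 1 with a trend and robust prior or without dim probe sets, and 3 for the PAXIP1-AS1 change minus that with siRNA 2 with all probe sets or only the compared groups. For siRNA 1 the 3 called became 1 with all probe sets tested, 1 with only the compared groups, 0 with a 1.5-fold minimum and 0 to 3 without an array. For siRNA 2 the 5 called became 1 with that minimum, and 4 to 6 without an array. For the PAXIP1-AS1 siRNA the 2 called became 1 after another quantile normalization, 1 with all probe sets, 4 with dim probe sets left out, 0 with only the compared groups, 4 with a trend and robust prior, 0 with the minimum, and 0 to 2 without an array. For siRNA 2 against siRNA 1 the 4 called became 1 with the minimum. For the PAXIP1-AS1 change minus that with siRNA 1 the 1 called became 0 after another quantile normalization, with all probe sets or with the minimum, 2 with dim probe sets left out, 2 with a trend and robust prior, 2 with the replicate block, and 0 to 1 without an array. Minus that with siRNA 2, the 4 called became 2 with the minimum and 2 to 4 without an array. Fewer samples or a stricter rule are part of these alternatives, and other causes were not tested.

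Over all probe sets the calls ranged from 3345 (without siRNA 1 replicate 1) to 6871 (replicate block) around 5401 for siRNA 1, and from 2711 (only the compared groups) to 6435 (replicate block) around 5615 for siRNA 2. For the PAXIP1-AS1 siRNA they ranged from 90 (without PAXIP1-AS1 replicate 2) to 1869 (dim probe sets left out) around 829. With the minimum they were 1091, 1254 and 114. Leaving out dim probe sets also dropped BCL2, whose mean level of 7.03 lay below the median of 7.62. Where leaving out an array left a lone sample, it was assumed to vary like the other groups.

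Signs of uncalled differences near 0 turned in some alternatives. After another quantile normalization BCL2 with the PAXIP1-AS1 siRNA became 0.011 and BAK1 with siRNA 2 against siRNA 1 became -0.0054. Leaving out an array gave, for the PAXIP1-AS1 siRNA, -0.070 to 0.061 for BCL2, -0.10 to 0.036 for BCL2L1 and -0.060 to 0.040 for LINC02893. It gave -0.045 to 0.13 for BAK1 with siRNA 1, and -0.0054 to 0.090 for BAK1 and -0.15 to 0.22 for BBC3 with siRNA 2. For siRNA 2 against siRNA 1 it gave -0.11 to 0.15 for BCL2 and -0.085 to 0.087 for BAK1. For the PAXIP1-AS1 change minus that with siRNA 1 it gave -0.079 to 0.047 for MCL1 and -0.10 to 0.059 for BCL2L11.

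Same-numbered replicates were checked for pairing. The deviations of rep 1 from its group mean correlated between groups at r = 0.063 to 0.50, positive for all 10 pairs, with 6 over 0.1. All 10 arrays correlated best with one of their own number, which follows from positive r because the deviations within a group mirror each other. Same-numbered arrays thus shared part of their deviation, and the main fit has no term for it. With the replicate block BCL2 passed with siRNA 1 (limma adjusted p = 0.0279) and with siRNA 2 (0.0386). With the replicate block the members called were 4 for siRNA 1, 6 for siRNA 2, 2 for the PAXIP1-AS1 siRNA and 4 for siRNA 2 against siRNA 1.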
